A study of Mus musculus with 9 samples.

Results

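The proteasome subunit genes were followed in 9 RNA-Seq libraries of a murine acute myeloid leukemia model. All genes whose symbol begins with Psm, a letter from a to g and a digit were taken, apart from the immunoproteasome subunits Psmb8, Psmb9 and Psmb10 and 4 names that contain -ps. The rule gave 47 of the 55401 genes in the tables. It also took Psmc3ip, which encodes a recombination factor that binds the proteasome ATPase Psmc3 and is no part of the proteasome. Psmc3ip had 23.2 to 35.2 reads per 1000000 reads on genes, overlaps Mlx, whose reads were 151% of its own, and is not followed further. The other 46 genes are described here as the proteasome genes.

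The cells were H9M cells, lineage negative bone marrow cells of C57BL/6-Ly5.1 mice that carry a gammaretroviral vector for Hoxa9 and Meis1. Single color-coded clones were made from them with lentiviral vectors. Lethally irradiated C57Bl6/J mice received a mixture of 24 such clones with helper bone marrow, and cKit+CD11b dim splenocytes were later sorted by color code. Libraries were made from less than a nanogram of RNA each. All groups therefore shared the Hoxa9 and Meis1 vector and carried color-coding vectors. Mouse #15, sacrificed 4 weeks after transplantation, gave the 3 pre-malignant libraries, 1 each of clones 33BC-D, 38BC-D and also 43BC-D. These clones were sequenced again as de novo expanded clones at the endpoint, 33BC-D in mouse #17, 38BC-D in mouse #13 and 43BC-D in mouse #14. The stably expanded libraries are all of clone 34BC-D, sorted from each of these endpoint mice. The pre-malignant and de novo expanded groups thus hold the same 3 clones, and between them group cannot be told apart from mouse and time. The de novo and stably expanded groups come from the same 3 mice, and between them group cannot be told apart from clone. Between the stably expanded and pre-malignant groups mouse, time and clone all differ and cannot be told apart. Labels tie the columns of the tables to a group but not to a clone or mouse, so the libraries were numbered 1 to 3 within each group, and these numbers carry no meaning across groups. The p-values measure only the spread between these libraries.

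The proteasome degrades proteins that carry ubiquitin chains. Its 20S core is a barrel of alpha rings that gate the entrance and beta rings that hold the protease sites, and the 19S regulatory particle caps the barrel. The 19S base unfolds substrates with a ring of ATPases, the lid holds the enzyme that removes ubiquitin, and dedicated chaperones assemble the core and the base. Dividing blood progenitors depend on this machinery to turn over cell cycle regulators, and proteasome inhibitors are used as drugs against blood cancers. In mammalian cells the subunit genes are known to be induced together by the transcription factor Nfe2l1 when proteasome activity is low, through antioxidant response elements in their promoters.

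Of the genes that passed the test in stably expanded clones, Psmc1 and Psmd5 are shown here and Psmc2 is not. Psmb5, which did not pass, is shown too and had the largest fold change of all proteasome genes there. For Psmc1, Psmd5 and Psmb5, 100 bases before an annotated start site are printed to show their letters. They come from the RefSeq promoter table (GRCm38.p6) and lie at chr12:100110054-100110153 on the plus strand (Psmc1), chr2:34870963-34871062 on the minus strand (Psmd5) and chr14:54618023-54618122 on the minus strand (Psmb5). None overlaps an annotated exon, and the Psmd5 stretch lies between exons inside the annotated span of that gene. Capitals mark a GC box (GGGCGG) in Psmd5 and an antioxidant response element core (TGACNNNGC) in Psmb5. No searched motif falls within the Psmc1 stretch.
Psmc1: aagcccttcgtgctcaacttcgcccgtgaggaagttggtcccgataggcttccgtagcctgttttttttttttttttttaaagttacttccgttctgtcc
Psmd5: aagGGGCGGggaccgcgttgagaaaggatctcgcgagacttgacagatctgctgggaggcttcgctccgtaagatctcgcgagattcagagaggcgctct
Psmb5: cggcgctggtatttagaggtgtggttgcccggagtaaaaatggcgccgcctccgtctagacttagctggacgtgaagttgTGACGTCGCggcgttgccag

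The 250 bases before the start were available for 38 of the 46 proteasome genes and were searched on both strands. The antioxidant response element core was found in 5 of them (Psmb5, Psmb6, Psmc6, Psmd9 and Psmd12), a share of 13.2% against 12% of 20440 genes with a promoter of the same length and 14.1% of those tested for expression. CCAAT stood in 34.2% of the proteasome promoters and 38.3% of all promoters, GGGCGG in 55.3% and 42.2%, and the E-box CACGTG in 7.89% and 7.35%. Among genes tested for expression, GGGCGG stood in 63.7%, so the proteasome promoters lay between both backgrounds. A match is a description of these letters and not a measured binding site.

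The depth ranged from 10379739 to 15551196 reads on genes in a library, and the proteasome genes with Psmc3ip took 418869 of them over the 9 libraries. De novo expanded library 3 stood apart from the other libraries of its group: the 8 markers of the sorted myeloid progenitors (Kit, Itgam, Ptprc, Cd34, Mpo, Elane, Prtn3 and Ctsg) summed to 20788 counts per 1000000 reads on genes (CPM) there, against 3522 and 4965 CPM in de novo expanded libraries 1 and 2, 8744 to 10100 CPM in the pre-malignant group and 11420 to 13547 CPM in the stably expanded group. Mpo led this sum, with normalized counts of 22991, 37197 and 226362 in de novo expanded libraries 1, 2 and 3 beside the pre-malignant group. Elane, Prtn3, Ctsg, Itgam and Kit were also highest in library 3 of these. Cd34 was lowest there (1524, 2290 and 668), and Ptprc lay between the others (4359, 5383 and 4779). All 8 markers were read in every library. The vector genes Hoxa9 and Meis1 were read in every library too. The 6 mature neutrophil markers, led by Camp, S100a8 and S100a9, summed to 65.3 to 113 CPM in the pre-malignant group, 74.8 to 203 CPM in the de novo expanded group and 162 to 1638 CPM in the stably expanded group. Ly6g, the defining neutrophil surface marker, had a normalized count of at most 15.2 in any library. The 6 macrophage markers summed to 158 to 281 CPM in the pre-malignant, 169 to 318 CPM in the de novo expanded and 235 to 298 CPM in the stably expanded group. Of these, Adgre1, Cd68 and Vcam1 had a mean normalized count of at least 10, and C1qa, C1qb and C1qc did not. Vcam1 was uneven, with normalized counts of 16.4, 94.5 and 2390 in de novo expanded libraries 1, 2 and 3. The 5 T cell markers summed to at most 2.8 CPM. The 6 erythroid markers were low but higher in every pre-malignant than in every de novo expanded library, with sums of 13.6 to 24.2 CPM in the pre-malignant, 1.5 to 13.1 CPM in the de novo expanded and 1.9 to 19.7 CPM in the stably expanded group. The same held for the 5 B cell markers, with sums of 13.8 to 17.5 CPM, 7.3 to 12.1 CPM and 11.0 to 19.1 CPM. Of these 5 genes, 4 had a lower mean in stably expanded than in pre-malignant clones. There 2 of them were called lower, beside 504 of all 13968 genes. Cd79b had a higher mean there (log2 fold change 0.99) and was not called. The part of these markers in the results was not tested. These are bulk samples, in which fewer cells of a type and less RNA per cell cannot be told apart.

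Most proteasome genes were well covered. Of the 46 genes, 43 had a mean normalized count of at least 10 in each comparison and were tested. The tissue-specific core subunits Psma8, known from testis, and Psmb11, known from the thymus cortex, had 3 and 8 reads over all 9 libraries, and 5 of the Psmb11 reads fell in 1 library. Psme2b, a relative of the activator gene Psme2, had 7 reads. A count of 0 at this depth allows up to 3 reads, so these genes were not detectable above that floor in most libraries. Reads on 6 annotated proteasome pseudogenes came to 36 in all. This does not show how many reads the genes lost, since reads that match a gene and a copy equally may be counted on neither.

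The level of each gene was compared per length, as CPM per kb of annotated exon sequence, a scale that lowers genes with many alternative exons. Psme1, which encodes a subunit of the 11S activator, had the highest level with 76.4 ± 14.5 CPM per kb (SD, n = 9), followed by the alpha subunit gene Psma6 with 68.5 ± 11.8 and the ATPase gene Psmc3 with 66.5 ± 5.87 CPM per kb. Psme1 exceeded Psma6 in 6 of 9 libraries and Psma6 exceeded Psmc3 in 4 of 9, so the order of the top genes was not fixed. At the lower end stood Psmd10, the base chaperone also known as gankyrin, with 2.29 ± 0.683 CPM per kb, and Psmd9 with 3.16 ± 0.406 CPM per kb.

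By role, the median level was 24.6 CPM per kb for the 7 alpha ring genes, 28.3 for the 7 beta ring genes, 24.7 for the 8 lid genes and 47.1 for the 6 base ATPase genes. The 3 base chaperone genes had a median of 3.16 CPM per kb, below every ring, base and lid gene. The 4 chaperones of core assembly ranged from 4.81 (Psmg3) to 39.8 CPM per kb (Psmg4). Along the order of levels, neighbours rarely differed in every library: only Psmc3 over Psmc1, Psma3 over Psmg3, Psmf1 over Psmd9 and Psmd10 over Psme2b held in 9 of 9 libraries.

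**Figure D1:**
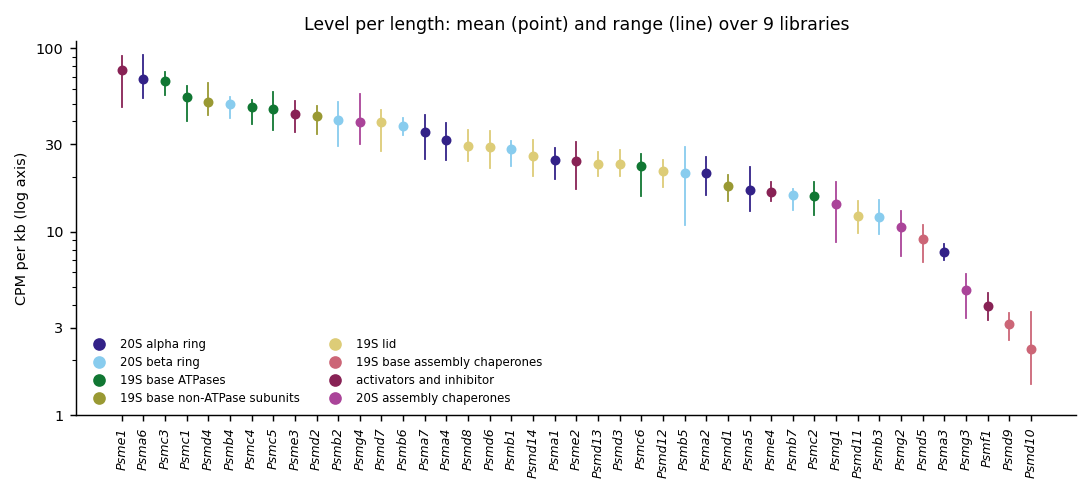
Level of the 43 tested proteasome genes in CPM per kb (log axis), ordered by the mean over 9 libraries (points), with the range over the libraries (lines) and the role of each gene in color. The base assembly chaperones Psmd9 and Psmd10 are at the right end, and Psme1, Psma6 and Psmc3 lead the order.

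The first question was whether the de novo expanded libraries held more or less proteasome mRNA than the pre-malignant libraries of the same clones. Summed over the 46 proteasome genes, the pre-malignant libraries held 2698.3, 2972 and 3237 CPM, the de novo expanded libraries 3668, 3393 and 3321 CPM, and the stably expanded libraries 3519, 3605 and 3291 CPM. Every leukemic library lay above every pre-malignant one. The mean of the de novo expanded group was 16.6% above the pre-malignant mean, and that of the stably expanded group was 16.9% above it. The gap between the highest pre-malignant and the lowest leukemic library was small beside the spread within the pre-malignant group.

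**Figure D2:**
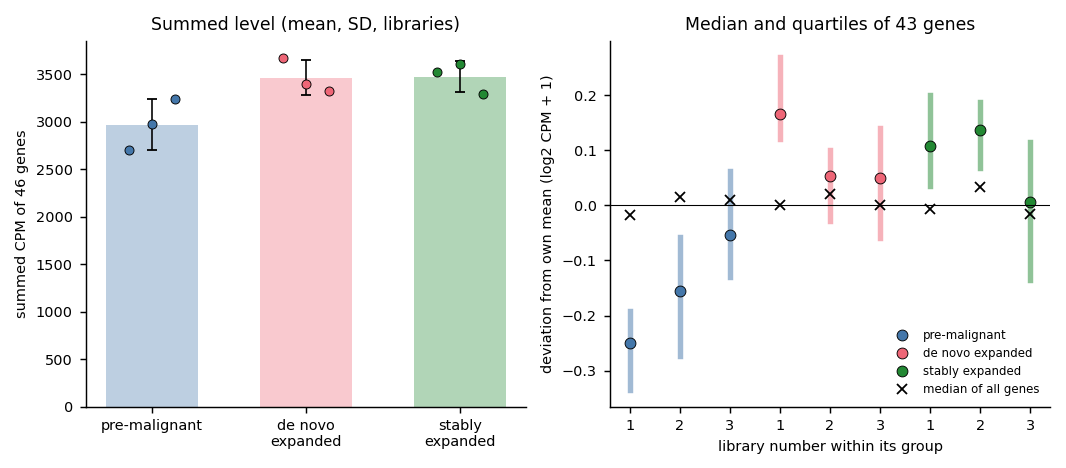
Left, summed CPM of the 46 proteasome genes in each library (points) with the group mean (bar) and SD. Right, for each library the median (point) and quartiles (thick line) of the deviation of 43 proteasome genes from their own mean over 9 libraries on the log2(CPM + 1) scale, beside the median of all genes (cross). The pre-malignant medians are -0.25, -0.16 and -0.05, and the leukemic medians lie between 0.01 and 0.16.

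The shift was shared by the genes within a library rather than carried by a few of them. In pre-malignant library 1, all 43 tested genes lay below their own mean over the 9 libraries, with a median deviation of -0.25 on the log2(CPM + 1) scale. This library gave the lowest value of 22 of the 43 genes, while the median of all genes there was -0.02. In de novo expanded library 1, 37 of 43 genes lay above their mean (median 0.16), and 17 genes had their highest value there. Stably expanded library 3 was the least raised leukemic library, with a median of 0.01 and 23 of 43 genes above their mean. The median SD within groups was 0.14 for the proteasome genes and 0.25 for all 14040 genes on the log2 scale, without adjustment for their levels.

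**Figure D3:**
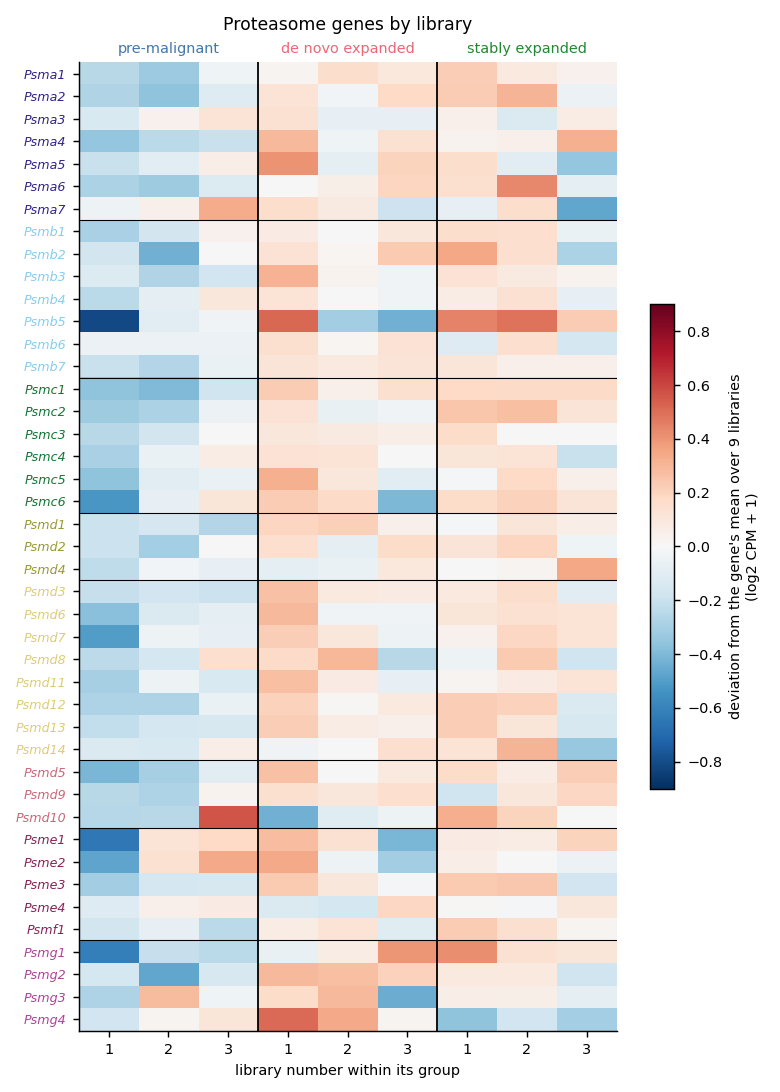
Deviation of each proteasome gene from its own mean over 9 libraries (log2(CPM + 1), red above and blue below), with genes as rows grouped by role and libraries as columns grouped by condition. Pre-malignant library 1 is blue in all 43 rows, and Psmb5, Psmd10 and Psmg1 show the widest ranges.

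Between de novo expanded and pre-malignant clones, 40 of the 43 proteasome genes tested had a higher mean in the de novo expanded group, with a median log2 fold change of 0.28 (1.21-fold). Over all 14195 genes tested, 51.0% were higher and the median was 0.01. No proteasome gene passed the limma test at an adjusted p-value under 0.05, as did none of all genes (0.00% of genes called higher), and the smallest adjusted p-value of a proteasome gene was 0.356. At an unadjusted p-value under 0.05 there were 15 proteasome genes, all higher, beside 850 higher and 747 lower among all genes. edgeR and DESeq2 also called 0 proteasome genes, and of all genes they called 0 and 49. All 3 de novo expanded libraries lay above all 3 pre-malignant libraries for 23 of the 43 genes (53.5%, against 10.6% of all genes), and all 3 lay below for 0 of them (against 8.50%).

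The libraries that stood apart were left out in turn. Without de novo expanded library 3, 41 of 43 genes were higher with a median of 0.31, and 1 of 43, Psmd1, was called (adjusted p-value 0.0425), beside 621 of all 14195 genes. Without pre-malignant library 1, the lowest library for the proteasome genes, 36 of 43 were higher with a median of 0.21.

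The higher mean was found in each structural class. All 7 beta ring genes, all 6 base ATPase genes, the 3 other base genes and all 8 lid genes had a higher mean in the de novo expanded group, with class medians between 0.24 and 0.30 on the log2 scale. Of the 7 alpha ring genes 6 were higher, and all 4 chaperones of core assembly were higher with a median of 0.43. The smallest class median was that of the activators and the inhibitor, 0.13 over 5 genes.

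Psmc1, an ATPase of the base, had the smallest p-value. Its level was 80.0, 78.0 and 91.0 CPM in the pre-malignant libraries and 121, 106 and 114 CPM in the de novo expanded libraries, without overlap. Its log2 fold change was 0.47 ± 0.11 (SE, adjusted p-value 0.356 by limma). Psmd1 encodes the large scaffold subunit of the base. It measured 112, 115 and 106 CPM in the pre-malignant and 147, 149 and 133 CPM in the de novo expanded libraries (log2 fold change 0.37 ± 0.09, adjusted p-value 0.360 by limma). Both genes were thus separated between the groups, and neither passed the adjustment over all genes.

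The lid subunit gene Psmd3 measured 99.5, 102 and 101 CPM in the pre-malignant libraries and 139, 123 and 121 CPM in the de novo expanded libraries (log2 fold change 0.35 ± 0.09, adjusted p-value 0.370). Psma4 of the alpha ring measured 58.3, 62.7 and 64.8 CPM against 91.2, 72.5 and 81.8 CPM (log2 fold change 0.41 ± 0.12, adjusted p-value 0.382). The groups did not overlap for either gene. Psmg2, a chaperone that pairs with Psmg1 to build the alpha ring, had the largest fold change of the proteasome genes in this comparison, with 16.2, 12.9 and 16.3 CPM in the pre-malignant and 22.4, 22.1 and 21.2 CPM in the de novo expanded libraries (log2 fold change 0.56 ± 0.16, adjusted p-value 0.382). Psme3, which encodes the nuclear activator PA28gamma, measured 103, 115 and 116 CPM against 151, 138 and 127 CPM (log2 fold change 0.33 ± 0.10, adjusted p-value 0.384).

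Only 3 proteasome genes had a lower mean in the de novo expanded group. Psmd10 was 0.26 ± 0.38 (SE) lower on the log2 scale, with 2.6, 2.6 and 5.3 CPM in the pre-malignant and 2.2, 3.0 and 3.1 CPM in the de novo expanded libraries, so that a single pre-malignant library set the difference. Psma7 of the alpha ring and Psme4, which encodes the activator PA200, differed by -0.08 and -0.02. For these 3 genes the groups overlapped.

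Between stably expanded and pre-malignant clones, 39 of 43 proteasome genes had a higher mean in the stably expanded group, with a median log2 fold change of 0.25 (1.19-fold) against 0.00 for all 13968 genes. In all, 3 genes rose at an adjusted p-value under 0.05: Psmc1, Psmc2 and Psmd5, which is 3 of 43 against 4.34% of all genes called higher (606 genes). None reached 2-fold. At an unadjusted p-value under 0.05 there were 21 proteasome genes, all higher, beside 1840 higher and 1713 lower among all genes. The stably expanded libraries lay above all pre-malignant libraries for 21 of 43 genes (48.8%, against 16.1% of all genes) and below them for 1 gene, Psmg4 (against 14.6%). Both leukemic groups were compared with the same 3 pre-malignant libraries, so these are not independent of the values in the de novo expanded group.

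The calls rested on few libraries. Without pre-malignant library 1 or without pre-malignant library 2, 0 proteasome genes were called, beside 486 and 369 of all 13968 genes (1110 with every library). Without pre-malignant library 3, Psmc1 and Psmc2 were called, beside 544 of all genes. Without stably expanded library 1, which had the highest neutrophil markers, Psmc1 was the 1 proteasome gene called, as also without stably expanded library 2, beside 499 and 1006 of all genes. Without stably expanded library 3 the called genes were Psma2, Psma6, Psmc1, Psmc2 and Psme3, beside 1093 of all genes. The number of calls over all genes thus moved with these choices as well. The median log2 fold change lay between 0.19 and 0.31 over these choices, and between 35 and 41 of 43 genes were higher.

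**Figure D4:**
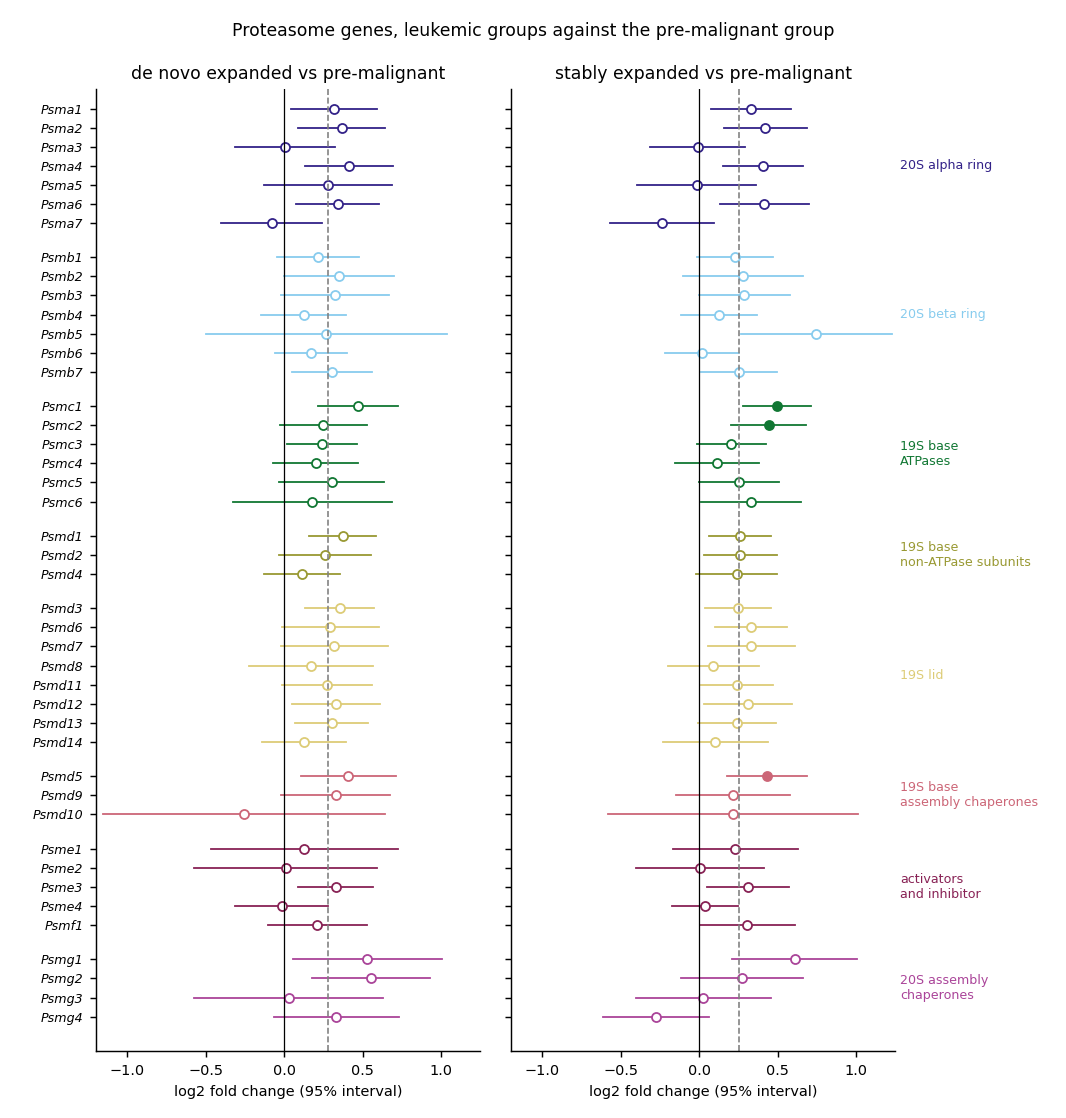
Log2 fold change (points) with 95% interval (lines) of 43 proteasome genes, grouped by role, for de novo expanded (left) and stably expanded (right) against pre-malignant clones, with filled points for genes at an adjusted p-value under 0.05 and a dashed line at the median of the 43 genes. The medians are 0.28 and 0.25, and the filled points are Psmc1, Psmc2 and Psmd5 on the right.

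Psmc1 measured 117, 116 and 116 CPM in the stably expanded libraries against 80.0, 78.0 and 91.0 CPM in the pre-malignant libraries. It rose 1.41-fold (log2 fold change 0.49 ± 0.10, adjusted p-value 0.0154 by limma). Psmc2, a second ATPase of the base, rose 1.36-fold from 62.2, 63.9 and 75.1 CPM to 93.0, 94.3 and 84.6 CPM (log2 fold change 0.44 ± 0.11, adjusted p-value 0.0332). Psmd5, a chaperone that holds the base ATPases during assembly, rose 1.35-fold from 49.2, 53.1 and 61.3 CPM to 73.7, 68.9 and 76.6 CPM (log2 fold change 0.43 ± 0.12, adjusted p-value 0.0477). For all 3 genes the groups were separated. Psmd5 missed the threshold under several other settings, among them DESeq2 (adjusted p-value 0.068).

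Among the catalytic subunits of the beta ring, Psmb5, which carries the chymotrypsin-like site that proteasome inhibitors target, had the largest fold change of all proteasome genes in this comparison (1.68-fold). It measured 9.8, 16.6 and 17.6 CPM in the pre-malignant and 24.8, 25.6 and 21.2 CPM in the stably expanded libraries, without overlap, yet missed the threshold (log2 fold change 0.75 ± 0.22, adjusted p-value 0.0615). In the de novo expanded libraries Psmb5 measured 26.1, 14.3 and 13.0 CPM, which overlapped the pre-malignant libraries and left a log2 fold change of 0.27 ± 0.33 (adjusted p-value 0.794). It had the widest spread within groups of the proteasome genes, an SD of 0.40 on the log2 scale. Psmb7, which carries the trypsin-like site, measured 46.8, 44.7 and 51.7 CPM in the pre-malignant, 58.7, 57.5 and 58.7 CPM in the de novo expanded and 58.3, 55.8 and 55.9 CPM in the stably expanded libraries, with log2 fold changes of 0.31 ± 0.11 (adjusted p-value 0.412) and 0.25 ± 0.11 (adjusted p-value 0.182). It had the narrowest spread within groups, 0.07.

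Psmb6, which carries the caspase-like site, measured 68.0, 67.8 and 67.9 CPM in the pre-malignant, 78.3, 71.4 and 77.2 CPM in the de novo expanded and 65.1, 78.4 and 63.0 CPM in the stably expanded libraries. Its log2 fold change was 0.17 ± 0.10 in de novo expanded clones (adjusted p-value 0.540) and 0.02 ± 0.11 in stably expanded clones (adjusted p-value 0.942), where the sign turned under quantile normalization.

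Of the alpha ring, Psma2 measured 62.5, 58.6 and 69.8 CPM in the pre-malignant and 88.9, 94.0 and 72.9 CPM in the stably expanded libraries (log2 fold change 0.42 ± 0.12, adjusted p-value 0.057), and Psma4 measured 76.1, 77.0 and 93.0 CPM in the stably expanded libraries (0.40 ± 0.12, adjusted p-value 0.057). Psma1 and Psma6 were separated between the groups as well. The other alpha genes were not: Psma3, Psma5 and Psma7 had lower means, with log2 fold changes of -0.01, -0.02 and -0.24. Psma7 measured 102, 109 and 133 CPM in the pre-malignant, 118, 112 and 92.6 CPM in the de novo expanded and 100.2, 118 and 76.1 CPM in the stably expanded libraries. The difference between genes of the ring was not tested.

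The lid and the other base genes were more even. All 8 lid genes had a higher mean in the stably expanded group, and their log2 fold changes ranged from 0.09 (Psmd8) to 0.33 (Psmd7). For Psmd3, Psmd6, Psmd7, Psmd11 and Psmd13 the groups did not overlap. Psmd14, the deubiquitinase of the lid, was 0.10 higher on the log2 scale, with overlapping groups. The scaffold genes Psmd1 and Psmd2 and the ubiquitin receptor gene Psmd4 were 0.24 to 0.26 higher. Psmd13 shares exon bases with Sirt3 on the opposite strand, whose reads came to 42.0% of those of Psmd13, and the strand setting of the counting is not given in the sources used here, so its values are uncertain. The same holds at a smaller scale for Psmb7 (Nek6, 12.3%) and Psmc3 (Slc39a13, 7.72%).

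None of the activators, which open the core without ubiquitin, passed the test. Psme1 and Psme2, which form the interferon-induced 11S ring, had log2 fold changes of 0.13 ± 0.25 and 0.01 ± 0.25 in de novo expanded clones and 0.23 ± 0.18 and 0.00 ± 0.18 in stably expanded clones (adjusted p-values 0.881, 0.994, 0.458 and 0.993). Psme1 measured 106, 181 and 188 CPM in the pre-malignant, 200.4, 182 and 124 CPM in the de novo expanded and 174, 173 and 190 CPM in the stably expanded libraries. Psme2 measured 30.3, 46.8 and 54.1 CPM in the pre-malignant, 54.1, 41.0 and 34.0 CPM in the de novo expanded and 44.2, 42.5 and 40.8 CPM in the stably expanded libraries. Both genes were lowest in pre-malignant library 1 and next lowest in de novo expanded library 3.

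Psme3 measured 151, 152 and 114 CPM in the stably expanded libraries and was 0.31 ± 0.12 higher on the log2 scale (adjusted p-value 0.129). Psme4 was 0.04 ± 0.09 higher there (adjusted p-value 0.853). Psmf1, which encodes the inhibitor PI31, measured 22.5, 24.0 and 21.3 CPM in the pre-malignant, 26.5, 27.7 and 23.4 CPM in the de novo expanded and 29.9, 28.1 and 25.7 CPM in the stably expanded libraries, with log2 fold changes of 0.21 ± 0.13 (adjusted p-value 0.574) and 0.31 ± 0.14 (adjusted p-value 0.192).

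The comparison of both leukemic groups asked whether clone 34BC-D, sorted as an expanded clone from all 3 endpoint mice, differed from clones sorted as de novo expanded from 1 mouse each. Here 25 of 43 proteasome genes had a higher mean in the stably expanded group and 18 a lower one, with a median log2 fold change of 0.01. The limma test called 0 proteasome genes, as did edgeR and DESeq2, against 1 gene higher of 13758 (0.00727%), and 1 proteasome gene had an unadjusted p-value under 0.05. The stably expanded libraries lay above all de novo expanded libraries for 2 genes, Psmc2 and Psmd10 (4.65%, against 4.66% of all genes), and below them for 2, Psmg2 and Psmg4 (against 4.95%), which is near the background in both directions.

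The interval of this difference varied in width between the proteasome genes. The log2 fold change of Psmc1 was 0.04 with a 95% interval from -0.18 to 0.27, that of Psmd5 0.04 with an interval from -0.24 to 0.32, and that of Psmb7 -0.04 with an interval from -0.27 to 0.20. Differences within these intervals cannot be told from 0 here, and differences of 2-fold lie outside all 3 of them. The median log2 fold change of stably expanded against pre-malignant clones was 0.25. A difference of that size lies inside each interval, upward for Psmc1 and Psmd5 and downward for Psmb7. Psma7 had a wider interval, from -0.54 to 0.26. Psmb5 was 0.50 ± 0.27 higher in the stably expanded libraries (adjusted p-value 0.891), with an interval from -0.14 to 1.13.

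Psmg4, a small chaperone that forms a pair with Psmg3, showed the smallest p-value. It measured 19.1, 22.0 and 23.4 CPM in the pre-malignant, 31.3, 27.7 and 22.0 CPM in the de novo expanded and 16.6, 19.1 and 17.3 CPM in the stably expanded libraries. Stably expanded libraries were lower than de novo expanded ones without overlap, with a log2 fold change of -0.59 ± 0.17 (adjusted p-value 0.891). Without de novo expanded library 3 it was called lower (log2 fold change -0.72, adjusted p-value 0.0347), the only call among the 43 proteasome genes, beside 925 of all 13758 genes. Its partner Psmg3 measured 14.4, 14.3 and 12.9 CPM in the stably expanded and 15.5, 17.0 and 9.8 CPM in the de novo expanded libraries, with overlap. Psmg1 and Psmg2, the other chaperone pair, were not alike either: Psmg1 measured 11.8, 16.0 and 15.5 CPM in the pre-malignant, 17.7, 19.4 and 24.8 CPM in the de novo expanded and 25.1, 20.5 and 20.04 CPM in the stably expanded libraries, whereas Psmg2 had 19.4, 19.4 and 15.9 CPM in the stably expanded libraries, below the de novo expanded ones.

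**Figure D5:**
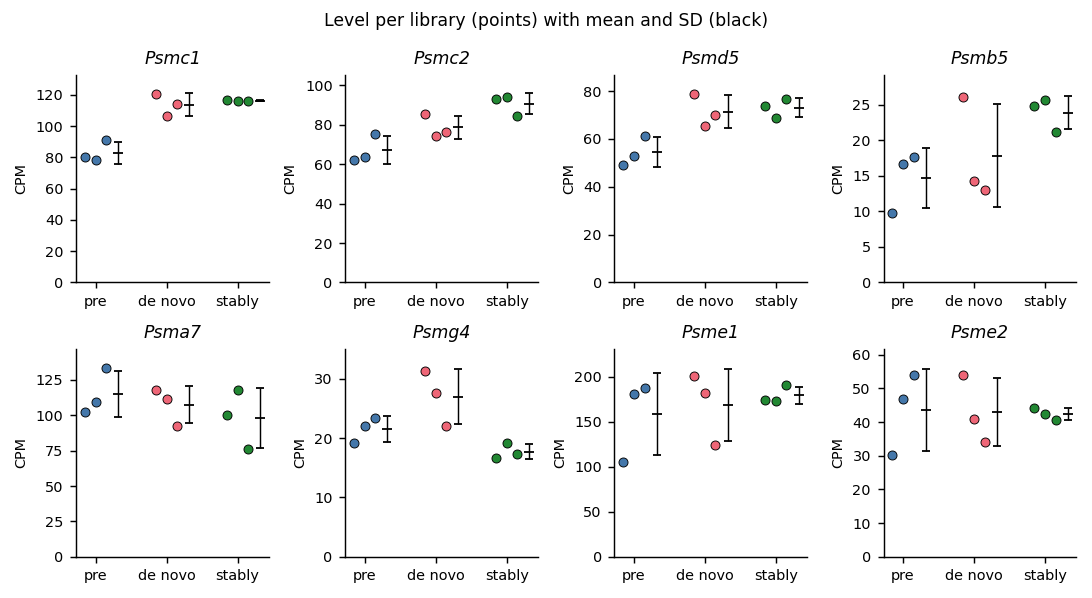
Level in CPM of 8 proteasome genes in each library (points, pre-malignant, de novo expanded and stably expanded), with the group mean and SD in black; each axis starts at 0. Psmc1, Psmc2 and Psmd5 are separated between pre-malignant and stably expanded clones, Psmg4 is lowest in stably expanded clones, and Psma7, Psme1 and Psme2 overlap between all groups.

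The neighbours of the proteasome in its pathway were taken from lists of genes with other names. The immunoproteasome subunits, which replace the catalytic subunits in cells exposed to interferon, were Psmb8, Psmb9 and Psmb10. None of them passed the test, and their log2 fold changes lay between 0.02 and 0.14 in de novo expanded and between -0.09 and 0.07 in stably expanded clones. They summed to 369, 419 and 461 CPM in the pre-malignant, 513, 468 and 354 CPM in the de novo expanded and 396, 403 and 395 CPM in the stably expanded libraries.

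Subunits and assembly factors that do not bear the Psm name were the ubiquitin receptor gene Adrm1, the small lid gene Sem1, the core maturation factor Pomp, the scaffold Ecpas and the nuclear import factor Akirin2. All 5 had a higher mean in stably expanded clones (median log2 fold change 0.29) and 4 of 5 in de novo expanded clones (0.15), with 0 calls. Of 4 regulators of proteasome genes, the transcription factor genes Nfe2l1 and Nfe2l2 did not pass the test in either comparison, with log2 fold changes of -0.03 and 0.06 in de novo expanded and 0.02 and 0.13 in stably expanded clones. Ddi2, the protease that activates the Nfe2l1 protein, fell in stably expanded clones (log2 fold change -0.41 ± 0.10, adjusted p-value 0.0345), where its normalized counts were 1263, 1361 and 1316 against 1582, 1747 and 1906 in the pre-malignant libraries. The 4 regulators with the deglycosylase gene Ngly1 summed to 298 to 355 CPM in the pre-malignant, 256 to 340 CPM in the de novo expanded and 274 to 308 CPM in the stably expanded libraries.

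On the ubiquitin side, Rps27a, which encodes ubiquitin fused to a ribosomal protein, rose in stably expanded clones (log2 fold change 0.45 ± 0.10, adjusted p-value 0.0284), while the polyubiquitin gene Ubb had a log2 fold change of -0.09 (adjusted p-value 0.608). Of the deubiquitinases that bind the proteasome, Uchl5 rose (0.44 ± 0.11, adjusted p-value 0.0352) and Usp14 was 0.15 ± 0.10 higher (adjusted p-value 0.387). None of the 2 ubiquitin activating enzymes, the 5 shuttle factors that carry ubiquitinated proteins to the proteasome or the 3 genes of the p97 unfolding complex passed the test in any comparison.

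Other large complexes of housekeeping genes were described in the same way. Of 77 mitochondrial ribosomal protein genes tested, 71 had a higher mean in de novo expanded clones (median log2 fold change 0.27, 0 called) and 61 in stably expanded clones (0.21, 4 called higher). Of 36 nuclear genes of respiratory complex I, 33 were higher in each comparison with medians of 0.23 and 0.22, and 3 were called higher in stably expanded clones. Of 81 cytosolic ribosomal protein genes, 75 were higher in de novo expanded clones (median 0.18, 0 called) and 50 in stably expanded clones (0.03, 1 called higher). Over all genes, 4.34% were called higher in stably expanded clones. Every de novo expanded library lay above every pre-malignant one for 32 mitochondrial ribosomal, 13 complex I and 31 cytosolic ribosomal genes. The stably expanded libraries did so for 27, 13 and 8 genes in the same order, and lay below for 0, 0 and 2. The shares of all genes that lay above were 10.6% and 16.1%. Higher means in the leukemic groups were thus also counted in these complexes, and the difference between them and the proteasome genes was not tested.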

How the data were processed

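The authors processed the SMARTer Stranded Total RNA-Seq Pico v3 libraries with Trim Galore 0.6.4, STAR 2.6.1d, featureCounts 1.6.4 and DESeq2 on GRCm38.p6 with GENCODE annotation. The deposited values are normalized counts, a signal of read counts per gene divided by size factors within each table of 6 libraries. The authors' own fold changes, test statistics and p-values in the tables were not used. Whole reads were recovered for 100% of values within 0.05 reads, and CPM were computed from them. Tests were run with limma 3.58.1 in R 4.3.3 (empirical Bayes with trend, two-sided) on log2(normalized count + 1) for genes averaging 10 or more over the 6 libraries, with Benjamini-Hochberg adjustment over all of them, and were tested on simulated data. edgeR 4.0.16, DESeq2 1.42.0, other pseudocounts, filters and scalings, and leaving out single libraries were alternatives. Counting limits cover counting error only. Genes given with test statistics were those called, the 6 smallest p-values of each comparison, the catalytic subunits, the activators and inhibitor, and the highest and lowest levels, and other genes were named after their values were seen. Members, lists and tests were chosen with earlier results of these data known. Some items are not reported here.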

Additional observations from a re-analysis of the deposited data

How the results depend on the processing

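Over all alternatives, the median log2 fold change of the proteasome genes lay between 0.21 and 0.34 in de novo expanded and between 0.19 and 0.31 in stably expanded against pre-malignant clones, and between -0.02 and 0.06 between the leukemic groups. The number of proteasome genes called between stably expanded and pre-malignant clones was 3, beside 1110 of all 13968 genes. It was 5 under a stricter filter (mean of 50 or more), beside 1118 of 10292 genes. In a fit of all 9 libraries it was 0, beside only 13 of 14040 genes. With a limit of 2-fold it was 0, beside 384 of all genes. When single libraries were left out it was 0 to 5, beside 369 to 1093 of all genes. In the other comparisons the number of proteasome genes called was 0 to 1 when single libraries were left out. Of all genes, 0 to 621 were then called between de novo expanded and pre-malignant clones, and 0 to 925 between the leukemic groups. Among the named genes the sign turned in 41 of 627 values, each of 1 gene under 1 alternative, all of them for genes that did not pass the test in that comparison. Between de novo expanded and pre-malignant clones, Psme2 was -0.021 with quantile normalization, -0.020 with edgeR, -0.0086 with DESeq2 and -0.0083 in the fit of 9 libraries. Leaving out single libraries there gave -0.039 to 0.45 for Psmb5, -0.43 to 0.085 for Psmd10, -0.13 to 0.33 for Psme1, -0.23 to 0.18 for Psme2 and -0.14 to 0.052 for Psme4. Between stably expanded and pre-malignant clones, quantile normalization gave -0.031 for Psmb6, -0.045 for Psme2 and -0.021 for Psme4, and Psme2 was -0.041 with edgeR, -0.035 with DESeq2 and -0.0011 in the fit of 9 libraries. Leaving out single libraries gave -0.065 to 0.066 for Psmb6, -0.028 to 0.38 for Psme1, -0.23 to 0.18 for Psme2 and -0.013 to 0.077 for Psme4. Between the leukemic groups, Psme2 was -0.019 with quantile normalization, -0.015 with edgeR and -0.0079 with DESeq2, and Psme3 was -0.036 with quantile normalization and -0.0057 in the fit of 9 libraries. Leaving out single libraries gave -0.0094 to 0.083 for Psmc1, -0.022 to 0.11 for Psmd5, -0.079 to 0.25 for Psme1, -0.13 to 0.19 for Psme2 and -0.074 to 0.13 for Psme3. The cause was not tested. No paired analysis was possible because no label ties a column to a clone or mouse. The fewest reads were on the 3 genes that were not tested, and of the genes tested on Psmd10, with 26 to 79 reads in a library.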
